A study of Rattus norvegicus with 35 samples.

Results

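Transcripts of 10 genes of fast-twitch skeletal muscle fibres were followed across 35 mammary glands of rat offspring: Myh2, Myh4, Myh1, Tnnc2, Tnni2, Tnnt3, Atp2a1, Ckm, Acta1 and Pvalb. The members are all probes whose gene name in the array files is one of these symbols or an older symbol of one of them. This gave 10 of the 41012 probes on the array, for 9 of the 10 genes. Myh2 had 2 probes, Myh1 had 0 and each of the other 8 genes had 1. The genes were chosen by the differences of muscle transcripts between groups seen earlier on these same arrays, so their values between groups are a description and support no statement beyond these 35 glands.

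Total RNA of the abdominal left mammary gland was taken from female Sprague-Dawley offspring at postnatal day 21, from different litters, and labelled with Cy3 on 1-colour Agilent whole rat genome arrays. The dams had received bisphenol A (BPA), a plastics monomer that binds oestrogen receptors, by gavage between gestational days 10 and 21. The 7 groups of 5 arrays were BPA at 25 µg/kg/day with genistein (BPA25+genistein), BPA at 250 µg/kg/day with genistein (BPA250+genistein), the same doses with indole-3-carbinol (BPA25+I3C and BPA250+I3C), the same doses alone (BPA25 and BPA250), and a negative control. Genistein, a soy isoflavone, was given at 250 mg per kg of chow (about 5.5 mg/kg/day), and I3C, a compound of cruciferous vegetables, at 2000 mg per kg of chow (about 45.0 mg/kg/day). No group received genistein or I3C without BPA, so each diet can be set against its own BPA dose only. No label gives the litter of a single gland, and 1 gland stands for each animal.

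Skeletal muscle fibres come in fast and slow types that differ in the isoforms of their contractile proteins. Myosin heavy chains pull on actin filaments, the troponin complex of C, I and T subunits makes that pull depend on calcium, and a pump of the sarcoplasmic reticulum takes the calcium back up. Fast fibres of rodents are rich in parvalbumin, a soluble calcium buffer, and in muscle creatine kinase, which regenerates ATP from phosphocreatine. The labels name the mammary gland as the tissue and do not name skeletal muscle. Of the markers of the gland itself, 9 of 9 adipocyte genes were well above background on 35 of 35 arrays, and 11 of 13 epithelial genes were measured, each above background on 14 to 34 arrays. RNA of a whole gland was measured, so fewer fibres and less RNA per fibre cannot be told apart in any value below.

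The 3 fast myosin genes lie in tandem on chromosome 10, and the probes show how close their sequences are. Each probe has 60 bases, and the array files place it on the rn3 build. The 2 probes filed for Myh2 stand 28619 bases apart, probe 2 at chr10:53902866-53902925 and probe 1 at chr10:53931485-53931544. The Myh4 probe, at chr10:53967556-53967615, lies 36071 bases beyond probe 1. In GRCr8 the whole Myh2 gene spans 26497 bases, the end of Myh1 lies 26463 bases beyond the end of Myh2, and the end of Myh4 lies 36598 bases beyond that of Myh1. RefSeq lists Myh1 among the older symbols of the gene under which both probes are filed, and which myosin probe 1 reads was not settled here. Set against each other at the offset of best match, Myh2 probe 2 and the Myh4 probe overlap by 29 bases. Of these, 20 (69.0%) are identical and shown in capitals. Neither probe was compared with a myosin transcript, and binding of a probe to more than 1 of them was not tested.
Myh2 probe 2: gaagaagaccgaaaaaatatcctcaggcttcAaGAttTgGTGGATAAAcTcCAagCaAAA
Myh4: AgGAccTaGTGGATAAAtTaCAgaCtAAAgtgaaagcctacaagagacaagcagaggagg

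Promoters of the 3 fast myosin genes are shown because these genes sit side by side and their promoters hold a common stretch. The RefSeq table of GRCr8 held promoters of 9 of the 10 genes, Tnnt3 being the exception, and the 250 bases before the transcript start it uses were searched. For Myh1, Ckm, Tnni2 and Pvalb that start lies inside the annotated gene span, so that their windows lie wholly or partly within it. The stretch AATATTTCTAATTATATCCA of 20 bases, in capitals, starts 170 bases before the Myh2 start, 166 before the Myh1 start and 177 before the Myh4 start. It was present, on either strand, in 5 of 33469 promoters of this length (0.0149%), namely these 3 and 2 entries of LOC102555216, also on chromosome 10. The second stretch in capitals, TATAAAA, lay 30, 33 and 45 bases before the start in the same order and was found in 4 of 9 member promoters, against 5.38% of all promoters (either strand). The intervals are chr10:52355489-52355738 (Myh2), chr10:52384662-52384911 (Myh1) and chr10:52421898-52422147 (Myh4), all on the plus strand.
Myh2 promoter: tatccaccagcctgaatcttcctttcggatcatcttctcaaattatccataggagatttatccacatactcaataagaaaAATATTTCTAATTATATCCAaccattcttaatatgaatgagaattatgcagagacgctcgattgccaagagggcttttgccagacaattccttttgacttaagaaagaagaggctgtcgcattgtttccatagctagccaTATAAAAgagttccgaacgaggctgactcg
Myh1 promoter: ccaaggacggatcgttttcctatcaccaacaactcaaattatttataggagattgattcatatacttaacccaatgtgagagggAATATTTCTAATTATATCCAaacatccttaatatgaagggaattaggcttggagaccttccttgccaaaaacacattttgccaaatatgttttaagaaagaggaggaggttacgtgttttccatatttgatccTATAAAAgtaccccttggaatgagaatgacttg
Myh4 promoter: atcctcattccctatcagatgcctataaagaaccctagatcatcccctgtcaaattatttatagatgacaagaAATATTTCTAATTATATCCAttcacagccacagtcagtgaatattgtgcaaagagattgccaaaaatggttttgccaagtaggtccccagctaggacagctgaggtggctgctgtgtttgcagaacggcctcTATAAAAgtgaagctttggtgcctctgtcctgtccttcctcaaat

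The promoters of Acta1, the actin of skeletal muscle filaments, and Ckm are shown for the motifs that myogenic factors and serum response factor are known to bind in muscle genes. Capitals mark the E-box CANNTG, the CArG box and TATAAAA. E-boxes occurred in 7 of 9 member promoters, with 3 in Ckm, 3 in Tnnc2, 2 each in Myh4 and Pvalb and 1 each in Acta1, Atp2a1 and Tnni2. They are common, being present in 65.5% of all promoters of this length. A CArG box stood in the Acta1 promoter 94 bases before the start and in the Myh4 promoter 118 bases before it, against 1.5% of all promoters. These are matches of letters on either strand and no measure of binding. The intervals are chr19:68784195-68784444 on the minus strand (Acta1) and chr1:88189211-88189460 on the plus strand (Ckm).
Acta1 promoter: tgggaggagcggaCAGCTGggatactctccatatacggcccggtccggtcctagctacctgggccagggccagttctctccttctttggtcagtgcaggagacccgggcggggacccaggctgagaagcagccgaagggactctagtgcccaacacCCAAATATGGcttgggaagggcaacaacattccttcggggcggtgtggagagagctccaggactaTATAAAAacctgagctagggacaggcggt
Ckm promoter: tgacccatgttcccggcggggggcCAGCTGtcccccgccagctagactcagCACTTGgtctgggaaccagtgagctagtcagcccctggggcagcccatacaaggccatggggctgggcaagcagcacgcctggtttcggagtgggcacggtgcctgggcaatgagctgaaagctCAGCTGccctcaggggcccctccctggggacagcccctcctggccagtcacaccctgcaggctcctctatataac

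Levels are log2 signals relative to the 75th percentile of the same array, and levels of different probes have no common scale. All 10 probes passed the filter on dim probes, which asks for 1 group with 4 or more of its 5 arrays well above background. They passed it in the groups where muscle signal was high, so no count over them stands as support for a difference. The 4 arrays of slide 3 (replicate 2 of BPA25+genistein, BPA25, BPA250 and control) had 93.4% to 96.4% of all probes above background, those of slides 4 and 5 had 65.2% to 72.2%, and all others had 31.9% to 49.8%. How muscle RNA came to be in these samples was not tested.

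All 10 probes were well above background on every control array and on every BPA25 array. Elsewhere they dropped out together in single animals. On BPA25+genistein replicate 5, BPA250+genistein replicates 4 and 5, BPA25+I3C replicate 3, BPA250+I3C replicates 4 and 5 and BPA250 replicate 4, between 1 and 3 of the 10 probes were above background. The range from the dimmest to the brightest array ran from 8.08 log2 units, or 271-fold, for Myh2 probe 2 to 13.72 log2 units, or 13493-fold, for Ckm. The dimmest reading of each of these probes was not above background, so the folds are not a measured range of transcript. These spreads are wide for this series: the SD over the 35 arrays was 2.26 to 3.87 for the 10 probes, while its median over all 16157 genes was 0.64, and 39 genes reached the lowest SD of a member gene.

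**Figure D1:**
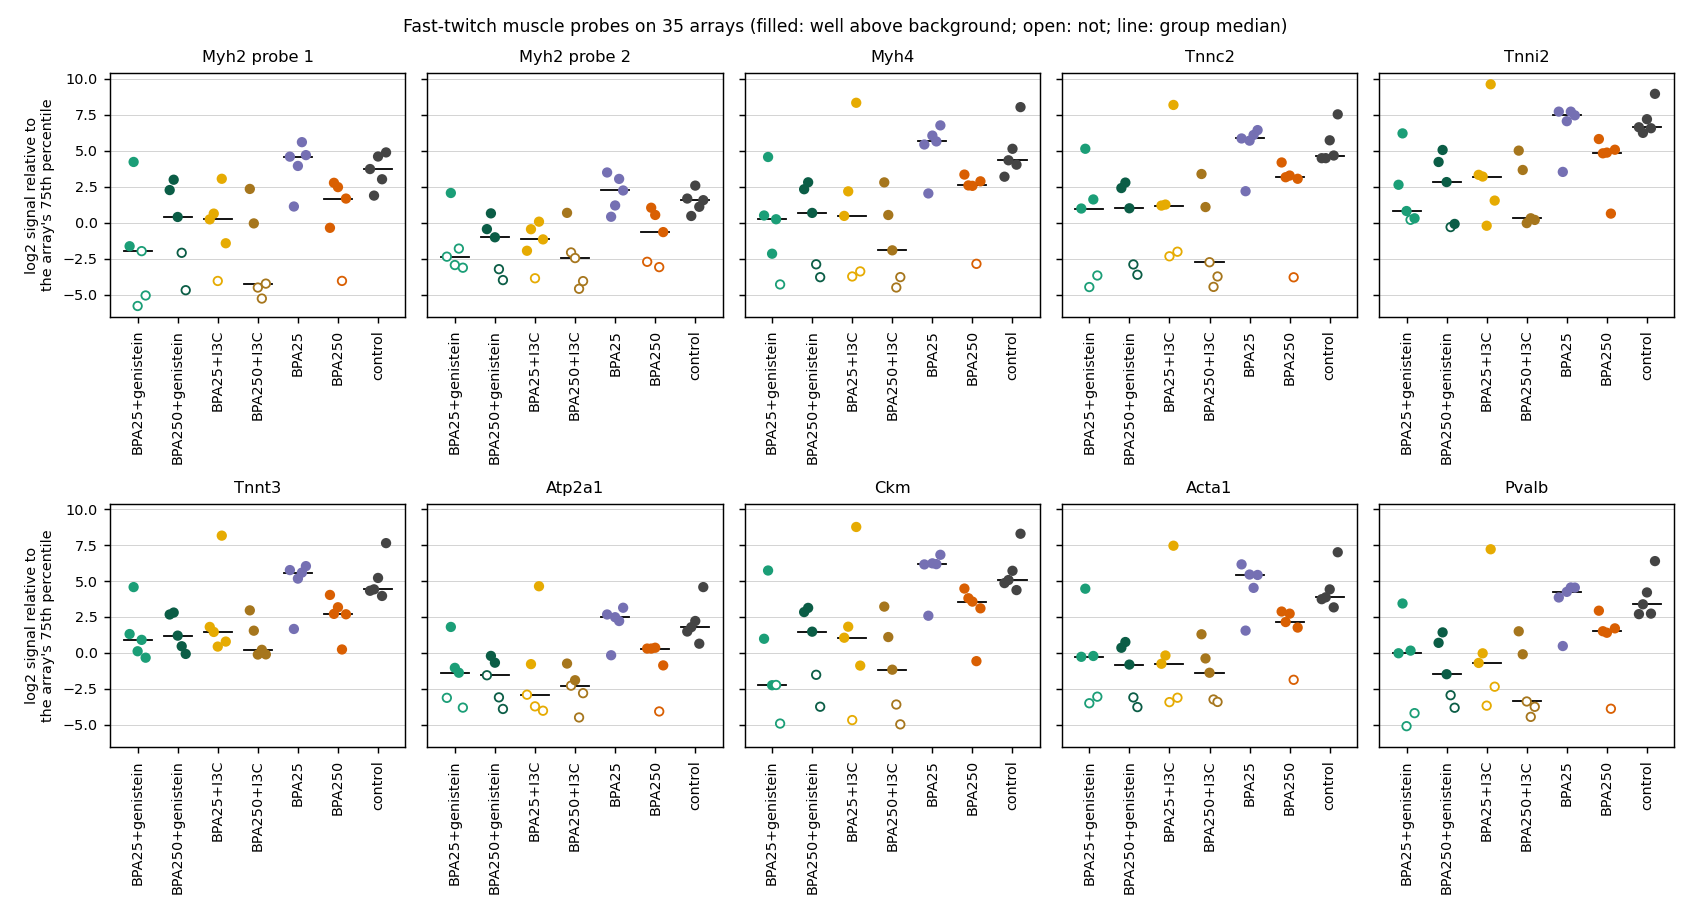
Log2 signal relative to the array's 75th percentile (y axis) of each of the 10 fast-twitch probes on 35 arrays, by group (x axis), with a line at the group median; filled points were well above background and open points were not. All points of BPA25 and control are filled, BPA25+I3C replicate 4 stands at the top for 8 of the 10 probes, and BPA250 replicate 4 lies below the other 4 BPA250 arrays for every probe.

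Myh4 encodes myosin heavy chain IIb, the motor of the fastest rodent fibres. Its levels were 0.50, 4.56, -2.16, 0.24 and -4.29 with BPA25+genistein (replicates 1 to 5) and 2.32, 2.80, 0.68, -2.89 and -3.79 with BPA250+genistein. They were 0.47, 2.18, -3.74, 8.33 and -3.39 with BPA25+I3C and 2.80, 0.53, -1.92, -4.51 and -3.79 with BPA250+I3C. Each of these 4 groups mixed glands with Myh4 signal and glands, 1, 2, 2 and 2 of 5 in that order, not above background. With BPA alone Myh4 stood at 5.43, 2.03, 6.05, 5.65 and 6.76 in BPA25, and at 3.34, 2.59, 2.56, -2.86 and 2.87 in BPA250. Control glands read 3.19, 4.33, 5.13, 4.03 and 8.03. The 5 BPA250+genistein and the 5 BPA250+I3C values all lay below the lowest control value, while the other 4 groups overlapped with control. The highest Myh4 level of the series came from a BPA25+I3C gland, replicate 4.

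Myh2 encodes myosin heavy chain IIa, of fast oxidative fibres. Of the 2 probes filed under it, probe 1, whose myosin was not settled, averaged -2.05 (SD 3.95, n = 5, 2 arrays above background) with BPA25+genistein, -0.23 (SD 3.18, 3 arrays) with BPA250+genistein, -0.32 (SD 2.63, 4 arrays) with BPA25+I3C and -2.35 (SD 3.32, 2 arrays) with BPA250+I3C. Its mean was 3.99 (SD 1.71, 5 arrays) in BPA25, 0.50 (SD 2.82, 4 arrays) in BPA250 and 3.62 (SD 1.22, 5 arrays) in control. Probe 2 followed it closely, with a Spearman correlation of 0.956 over the 35 arrays, and its group means ran from -2.50 (SD 2.07) with BPA250+I3C to 2.07 (SD 1.27) in BPA25, with 1.48 (SD 0.78) in control. The probes differed on BPA25+I3C replicate 4: Myh4 was the highest of all 35 arrays there, while Myh2 probe 1 read 3.05 and probe 2 read 0.07. The first lies inside the control range of 1.88 to 4.88, and the second below the control range of 0.46 to 2.58.

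Tnni2 encodes fast troponin I, the inhibitory subunit, and was the member above background most often after Tnnt3, on 33 of 35 arrays. It read 2.63, 6.20, 0.81, 0.20 and 0.30 with BPA25+genistein and 4.22, 5.05, 2.82, -0.31 and -0.09 with BPA250+genistein. With BPA25+I3C it read 3.32, 3.20, -0.21, 9.62 and 1.53, and with BPA250+I3C 5.01, 3.66, -0.03, 0.30 and 0.19. A gland near 0 occurred in all 4 groups. BPA25 glands stood at 7.72, 3.53, 7.05, 7.72 and 7.46, BPA250 glands at 5.81, 4.82, 4.87, 0.63 and 5.07, and control glands at 6.63, 6.24, 7.19, 6.56 and 8.95. All BPA250 values lay below all control values, as did all values with BPA250+genistein and BPA250+I3C. The spot was saturated on 3 arrays (BPA25+genistein replicate 2, BPA25+I3C replicate 4 and control replicate 5), where the reading is a lower limit. The saturated BPA25+genistein reading of 6.20 stood just under the lowest control value of 6.24, so whether that group lies wholly below control cannot be read.

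Tnnt3, which lies close to it on chromosome 1, encodes fast troponin T, which anchors the complex to tropomyosin. In GRCr8 Tnni2 spans chr1:206882358-207027034 and Tnnt3 chr1:207082014-207099014. Tnnt3 was above background on 35 of 35 arrays. It averaged 1.32 (SD 1.93, n = 5) with BPA25+genistein, 1.42 (SD 1.29) with BPA250+genistein, 2.53 (SD 3.19) with BPA25+I3C, 0.90 (SD 1.34) with BPA250+I3C, 4.84 (SD 1.80) in BPA25, 2.57 (SD 1.41) in BPA250 and 5.11 (SD 1.48) in control. By that flag no Tnnt3 reading is at background. On the glands where most of the other probes dropped out it read -0.33 to 0.47, and whether that signal is Tnnt3 transcript was not tested. Tnnc2 encodes the calcium-binding subunit of fast fibres, and it ranged over 12.66 log2 units, from -4.48 on BPA25+genistein replicate 3 to 8.18 on BPA25+I3C replicate 4. The lower of these Tnnc2 readings was not above background.

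Acta1 read -0.27, 4.47, -3.50, -0.21 and -3.04 with BPA25+genistein and 0.36, 0.76, -0.81, -3.09 and -3.76 with BPA250+genistein. It stood at -0.75, -0.18, -3.42, 7.45 and -3.11 with BPA25+I3C and at 1.30, -0.38, -1.38, -3.23 and -3.40 with BPA250+I3C. All 4 groups held 2 readings not above background. Glands of BPA25 read 6.16, 1.55, 5.45, 4.52 and 5.42, those of BPA250 read 2.88, 2.15, 2.73, -1.87 and 1.76, and control glands read 3.74, 3.87, 4.42, 3.17 and 7.0. The BPA250 glands all lay below the control glands. Acta1 shares much coding sequence with the cardiac and smooth muscle actins, and binding of their transcripts to this probe was not tested.

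Ckm spanned the widest range, down to a reading not above background. It read 0.99, 5.73, -2.24, -2.23 and -4.91 with BPA25+genistein and 2.84, 3.13, 1.48, -1.52 and -3.74 with BPA250+genistein. Levels with BPA25+I3C were 1.06, 1.83, -4.66, 8.76 and -0.88, and with BPA250+I3C 3.22, 1.11, -1.16, -3.58 and -4.96. BPA25 glands stood at 6.15, 2.59, 6.23, 6.17 and 6.82, BPA250 glands at 4.48, 3.80, 3.57, -0.57 and 3.1, and control glands at 4.85, 5.07, 5.71, 4.37 and 8.29. The gland with the highest Ckm level and the gland with a level of -4.66 both belonged to BPA25+I3C.

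Atp2a1 encodes the calcium pump of fast fibres. With BPA25+genistein it averaged -1.50 (SD 2.18, 3 arrays above background), with BPA250+genistein -1.88 (SD 1.57, 2 arrays), with BPA25+I3C -1.35 (SD 3.58, 2 arrays) and with BPA250+I3C -2.44 (SD 1.37, 2 arrays). Its means were 2.07 (SD 1.29, 5 arrays) in BPA25 and -0.79 (SD 1.90, 4 arrays) in BPA250, against 2.14 (SD 1.48, 5 arrays) in control. Each mean covers 5 arrays. In all groups but BPA25 and control, at least 1 gland gave no reading above background. Pvalb, which encodes parvalbumin, ranged from -5.09 on BPA25+genistein replicate 3, not above background, to 7.21 on BPA25+I3C replicate 4.

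The group medians stood in a similar order for the 10 probes, with BPA25 highest, control next and BPA250 after it. Of the 60 neighbouring pairs in these orders, 58 had a gap smaller than the larger SD of the pair, and the ranges of 56 overlapped. The step from control to BPA250 gave all the exceptions: its gap exceeded the SD for Myh2 probe 2 and Tnnt3, and its ranges did not overlap for Acta1, Atp2a1, Tnnc2 and Tnni2. Group accounted for 42.8% to 52.2% of a member's variance and slide for 30.4% to 54.5%, each taken alone and not corrected for the number of levels. The values over all genes were 15.1% for group and 62% for slide. The members were chosen by differences between groups on these arrays, so their group share is a description.

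The members varied as one block. Over the 35 arrays the Spearman correlation of 2 members ran from 0.858 (Myh2 probe 2 with Atp2a1) to 0.988 (Tnnc2 with Pvalb). These points share array, depth of signal and slide, and the figures are a description.

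Each comparison below was fitted with limma over all genes and 35 arrays, and adjusted p-values are Benjamini-Hochberg values over all genes of that comparison. No member gene had an adjusted p under 0.05 in any of the 13 comparisons, and none in the F test for any difference among the 7 groups, where member adjusted p-values were 0.341 to 0.478. Over all genes 0.00619% were called in the F test (4.04% at an unadjusted p under 0.05). Myh2 stands for probe 1 in every count of 9 genes, by the name in the files; which myosin that probe reads was not settled. Comparisons with the same control or BPA arrays share those arrays, so they are not independent of one another.

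**Figure D2:**
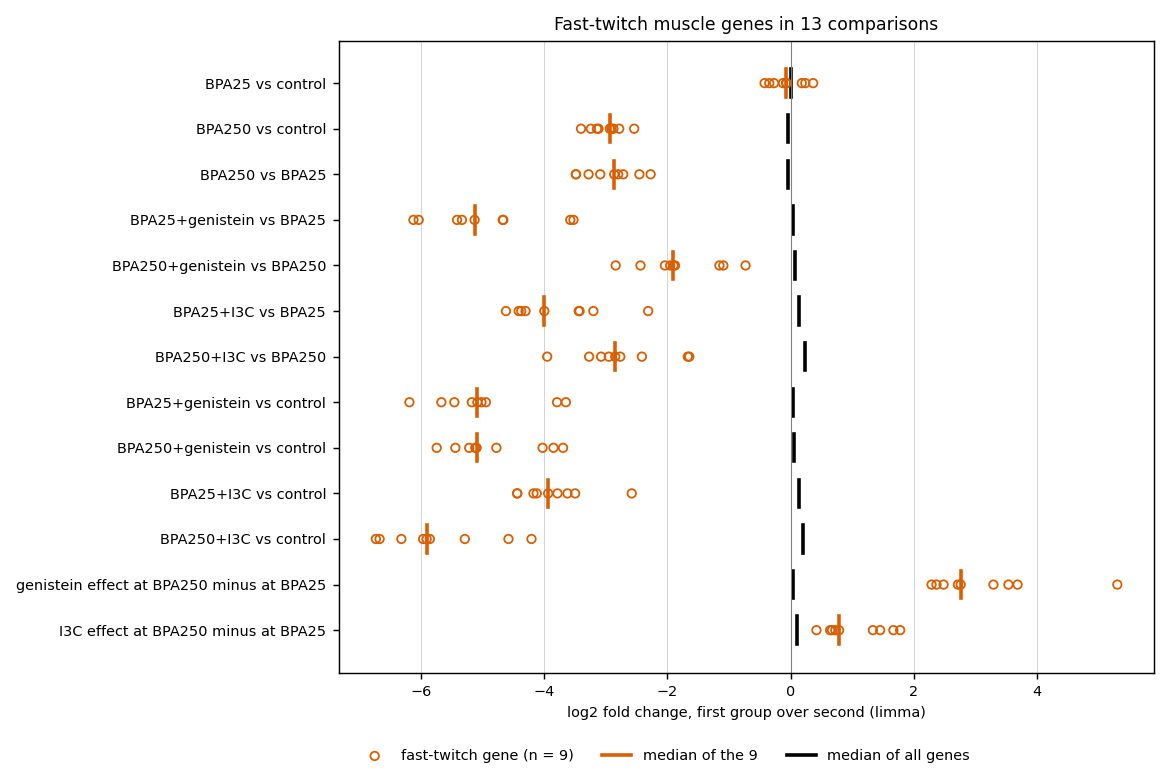
Log2 fold change of the first group over the second (x axis) for the 9 fast-twitch genes in 13 comparisons (rows, limma over 35 arrays); the orange line is the median of the 9 and the black line that of all genes. The 9 genes straddle 0 for BPA25 vs control, with a median of -0.07, and lie below 0 in the 10 other comparisons between groups, down to a median of -5.91 for BPA250+I3C vs control.

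In BPA25 glands the fast-twitch genes stood close to control. The 9 log2 fold changes had a median of -0.07, from -0.42 ± 1.40 (SE) for Tnni2 to 0.37 ± 1.65 for Myh2. Limma called 0 of the 9, and 0% of all genes. At an unadjusted p under 0.05 there were 0 of 9, against 2.01% of all genes. The standard errors mean that a difference of several-fold in either direction was not detectable here. Both groups lay on 4 slides, where the median difference was 1.30, -2.31, 0.37 and -1.46 (slides 1, 3, 7 and 9). A fixed block for slide gave -0.77. No gene separated the groups in the lower direction, against 0.173% of all genes, and 6 of 9 lay below control, against 47.9% of all genes. The sign of the median turned without slide 3, at 0.42, without BPA25 replicate 2, at 0.64, and without control replicate 5, at 0.54.

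With BPA250 all 9 genes were lower than in control, with a median log2 fold change of -2.94, where the median of all genes was -0.03 and 58.3% of all genes were lower. Tnnc2 stood at -3.40 ± 1.83 (SE), Atp2a1 at -2.94 ± 1.20, Acta1 at -2.91 ± 1.51 and Tnnt3 at -2.54 ± 1.10. Limma called 0 of 9, against 0% of all genes, and 3 of 9 had an unadjusted p under 0.05, against 0.99% of all genes. The BPA250 range lay wholly below the control range for 4 of 9 genes, Tnnc2, Tnni2, Atp2a1 and Acta1, against 0.223% of all genes. The difference rested in part on 1 gland: without BPA250 replicate 4 the median was -1.98. On slides 1, 3 and 7 it was -0.38, -1.49 and -6.56, the last being the slide of replicate 4, and a fixed block for slide gave -2.41. Without slide 3 it was -3.30.

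Between the doses, BPA250 had lower levels than BPA25 for 9 of 9 genes, with a median of -2.86 (all genes -0.04, 55.9% lower). Myh2 stood at -3.49 ± 1.65 (SE) and Atp2a1 at -2.86 ± 1.20. Limma called 0 of 9, with 0% of all genes called, and 4 of 9 had an unadjusted p under 0.05 (1.68% of all genes). The slides disagreed: the median was -1.91 on slide 1, 1.03 on slide 3 and -7.09 on slide 7. A fixed block for slide gave -1.37, leaving out slide 3 gave -3.76 and leaving out BPA250 replicate 4 gave -1.86. No member lay wholly below in BPA250, against 0.0743% of all genes.

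In the main fit, genistein added to BPA25 went with the widest gap, by the median, between groups that differ in diet alone. The 9 genes had a median of -5.13 (all genes 0.03, 46.3% lower), from -6.12 ± 1.84 (SE) for Ckm and -6.04 ± 1.65 for Myh2 to -3.53 ± 1.10 for Tnnt3. All 9 had an unadjusted p under 0.05, against 4.73% of all genes, and 0 of 9 were called after adjustment (member adjusted p-values 0.877 to 0.920), against 0.00619% of all genes. For 0 of 9 genes did the BPA25+genistein values lie wholly below those of BPA25, against 0.13% of all genes. BPA25+genistein replicate 2 was the highest of its group, and BPA25 replicate 2 the lowest of its group, for 9 of 9 genes. Both arrays come from slide 3, where the genistein array was higher in 9 of 9 genes, with a median of 2.91, while on slide 7 it was lower in 9 of 9, with a median of -4.73. A fixed block for slide gave a median of -3.40, and under that block the gap between BPA250+I3C and BPA250 was wider, at -3.82. Leaving out slide 3 gave -7.14, and limma then called 1 of the 9 (Myh2), among 19 genes in all.

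With genistein added to BPA250, 9 of 9 genes were lower, with a median of -1.90 (all genes 0.07, 42% lower) and no member called (0% of all genes). Acta1 stood at -2.84 ± 1.51 (SE) and Myh2 at -0.73 ± 1.65. At an unadjusted p under 0.05 there were 0 of 9, against 4.21% of all genes. It was lower on both slides with the 2 groups, by medians of -2.08 (slide 5) and -5.53 (slide 10). The ranges overlapped for all 9 genes, while 0.173% of all genes lay wholly lower with genistein. A fixed block for slide gave a median of -1.26, and leaving out 1 array moved it between -3.02 (without BPA250 replicate 4) and -1.15 (without BPA250+genistein replicate 5). The effect of genistein at BPA250 minus that at BPA25 had a median of 2.76, above 0 in 9 of 9 genes (all genes 0.05, with 44.6% below 0), with Myh2 at 5.31 ± 2.33. Limma called 0 of 9 in that interaction, with 0% of all genes called, and 1 of 9 (Myh2) had an unadjusted p under 0.05, against 1.16% of all genes. A fixed block for slide gave a median of 1.93, and leaving out slide 3 gave 4.82.

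I3C added to BPA25 went with a median of -4.00 (all genes 0.13, 34.3% lower), from -4.62 ± 1.51 (SE) for Acta1 to -2.31 ± 1.10 for Tnnt3. All 9 genes had an unadjusted p under 0.05 (4.33% of all genes), and 0 of 9 were called (member adjusted p-values 0.903 to 1.00), against 0.0124% of all genes. BPA25+I3C replicate 4 exceeded every BPA25 gland for 8 of 9 genes. Without it the median was -5.22 and limma called Acta1 and Atp2a1, among 22 genes. The only slide with both groups, slide 9, held that gland, and its median difference was 1.93. A fixed block for slide gave -2.27, and 0 of the 9 genes separated the groups in the lower direction (0.229% of all genes). Myh2 probe 2, which is outside that count, did so, with a highest BPA25+I3C value of 0.07 and a lowest BPA25 value of 0.41.

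I3C added to BPA250 went with a median of -2.85 (all genes 0.24, 30.2% lower), 9 of 9 genes lower and 0 called (0% of all genes). Ckm stood at -3.95 ± 1.84 (SE) and was the only member with an unadjusted p under 0.05, against 4.33% of all genes. On slide 1, the only slide with both, the median was -1.04, and a fixed block for slide gave -3.82. None of the 9 lay wholly lower with I3C, against 0.26% of all genes. The I3C effect at BPA250 minus that at BPA25 had a median of 0.79, above 0 in 9 of 9 genes (all genes 0.10, with 40.8% below 0), with 0 of 9 called (0% of all genes) and 0 of 9 at an unadjusted p under 0.05 (3.16%). It lay between 0.06 (without BPA250 replicate 4) and 2.45 (without BPA25+I3C replicate 4), and a fixed block for slide gave -1.20, so its direction is not settled.

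**Figure D3:**
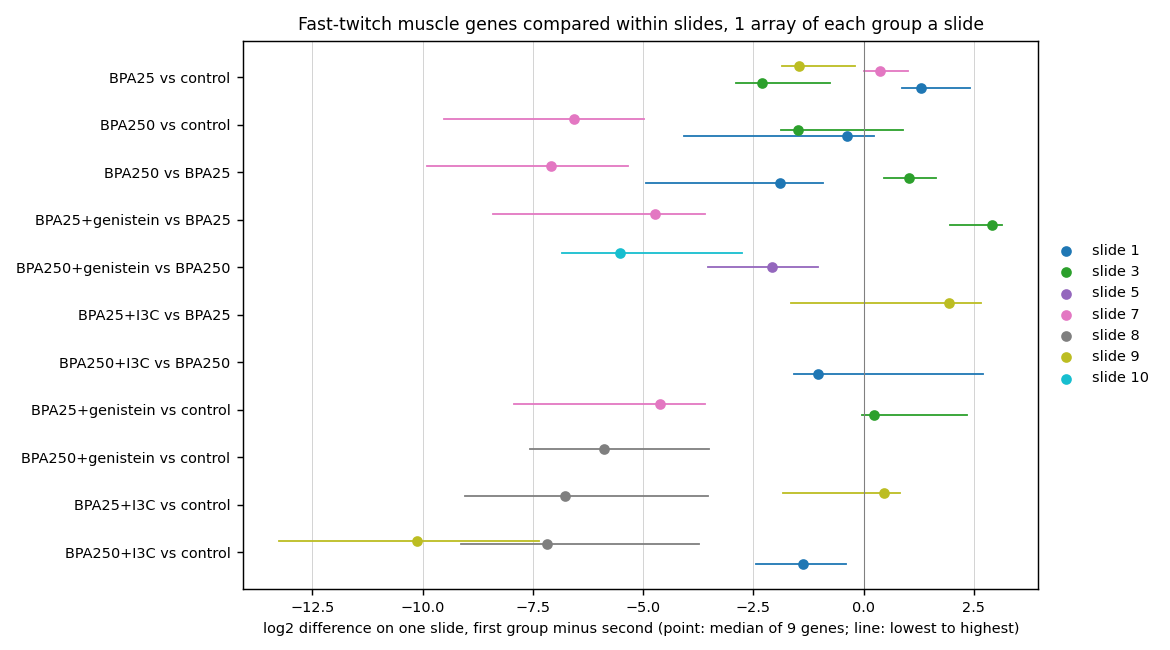
Log2 difference between 2 arrays of the same slide, first group minus second (x axis), for each comparison and each slide that held both groups; points are the median of the 9 fast-twitch genes and lines run from the lowest to the highest gene. BPA25+genistein lies above BPA25 on slide 3 at 2.91 and below it on slide 7 at -4.73, while BPA250+I3C lies below control on all 3 of their slides.

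Against control, the 4 groups with BPA and a diet were all lower in 9 of 9 genes. Control glands had neither, so BPA and diet cannot be told apart in these comparisons. The medians were -5.09 for BPA25+genistein (all genes 0.04, 44.5% lower), -5.10 for BPA250+genistein (0.05, 44.1%), -3.94 for BPA25+I3C (0.14, 29.4%) and -5.91 for BPA250+I3C (0.20, 30.6%). These 4 comparisons share the same 5 control arrays. In each, 9 of 9 genes had an unadjusted p under 0.05, against 1.68%, 4.26%, 1.57% and 3.63% of all genes, and 0 of 9 were called, against 0% of all genes. The group lay wholly below control for 8 of 9 genes with BPA250+genistein (all but Myh2), 0 of 9 with BPA25+I3C and 8 of 9 with BPA250+I3C (all but Myh2), against 0.569%, 0.173% and 0.724% of all genes that did so. With BPA25+genistein 1 of 9 did (0.0433% of all genes), namely Tnni2, whose highest reading in that group was saturated, so that this separation cannot be relied on. Myh2 probe 2, outside the count of 9, lay wholly below control with BPA25+I3C, its highest value there being 0.07 and the lowest control value 0.46.

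In the main fit BPA250+I3C against control had the lowest median of the 11 comparisons between groups, and member adjusted p-values of 0.226 to 0.273. That rank depends on the setting, as array weights gave -7.365 for BPA25+genistein against BPA25. The lowest median of BPA250+I3C against control was -6.424 under settings other than leaving out 1 array. In BPA250+I3C against control 4 of 4 erythroid genes were higher and none called, with a median of 1.47 (0.88 to 1.85). Their summed signal, in log2 units relative to the 75th percentile, ran from 5.78 to 8.67 with BPA250+I3C, against 4.13 to 6.73 in control, and their part in the result was not tested. Ckm stood at -6.73 ± 1.84 (SE), Tnnc2 at -6.67 ± 1.83, Myh4 at -6.32 ± 1.80, Acta1 at -5.86 ± 1.51 and Tnnt3 at -4.21 ± 1.10. The BPA250+I3C array was lower for 9 of 9 genes on all 3 shared slides, with medians of -1.38, -7.18 and -10.1 on slides 1, 8 and 9. The median was -6.0 with slide as a fixed block. With slide as a random block (correlation within slides 0.584) limma called 8 of the 9, all but Myh2, among 87 genes. BPA250+genistein was lower on its only slide shared with control, slide 8, with a median of -5.89, and a fixed block for slide gave -3.84. For BPA25+genistein the slides gave 0.23 (slide 3) and -4.63 (slide 7), with -4.22 as a fixed block and -6.35 without slide 3. For BPA25+I3C they gave -6.78 (slide 8) and 0.47 (slide 9), with -3.29 as a fixed block, and the median was -5.56 without BPA25+I3C replicate 4. Limma called Acta1 and Atp2a1, among 25 genes, between BPA25+I3C and control once BPA25+I3C replicate 4 was left out.

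Weighting arrays by how closely they followed their group means over all genes called more members. Such weights give less to glands that depart from their group in these same data, so these calls are no firmer evidence. Under such weights, which ran from 0.0949 to 3.23, limma called 7 of 9 between BPA25+genistein and BPA25, 9 between BPA25+I3C and BPA25, 9 between BPA250+I3C and control and 9 in the F test. All genes called in those fits numbered 74, 819, 164 and 967. No member was called under these weights in either comparison of a BPA dose alone with control.

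The few genes that limma called outside the members in comparisons between 2 groups belong to slow fibres. The 1 gene called in the F test among the 7 groups is not identified here. Tnni1, slow troponin I, fell with BPA25+I3C against BPA25 by 4.62 ± 0.83 (SE) on the log2 scale (adjusted p = 0.0335). It was above background on 0 of 5 BPA25+I3C arrays and 5 of 5 BPA25 arrays. The size of its fall thus rests on readings not above background. With normexp background correction its log2 fold change was -1.85, and with the deposited log2 table it was -2.65. Myoz2, a protein of slow-fibre Z-discs, fell by 3.51 ± 0.64 in the same comparison (adjusted p = 0.0335). It was above background on 1 of 5 BPA25+I3C arrays and 5 of 5 BPA25 arrays, so the size of this fall also rests mostly on readings not above background. Its log2 fold change was -0.92 with normexp and -1.34 with the deposited log2 table. Myoz2 also fell with BPA25+genistein against BPA25, by 3.90 ± 0.67 (adjusted p = 0.0321). That value rests on 4 BPA25+genistein arrays, none above background, because the spot of replicate 2, which was above background, was flagged as an outlier. With flagged spots kept it was -2.89 with an adjusted p of 0.916, so the call depends on leaving out that gland. Of 21 other settings the calls with BPA25+I3C held in 7 for Tnni1 and 8 for Myoz2, with adjusted p-values from 4.83e-06 to 0.571 and from 8.65e-05 to 0.824, and the Myoz2 call with BPA25+genistein held in 9, with 0.000348 to 0.999. Tnni2, the fast counterpart of Tnni1, stood at -3.20 ± 1.40 with BPA25+I3C against BPA25, including the saturated reading of replicate 4, and was not called.

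Slow-fibre transcripts mostly moved with the fast ones from gland to gland. Of 12 slow-fibre genes 11 were measured, and their Spearman correlation with the mean of the 9 fast genes over 35 arrays had a median of 0.803, with 8 of 11 above 0.7. Myl2, the regulatory light chain of slow and cardiac muscle, reached 0.890. Atp2a2, the calcium pump of slow fibres that many other cell types also express, stood at -0.09. In BPA250 against control 11 of 11 slow-fibre genes were lower and none called, with a median of -2.08, and in BPA25 against control 9 of 11 were higher, with a median of 0.72, where the fast genes had -0.07. With genistein added to BPA250 the slow genes had a median of -0.15, with 10 of 11 lower and none called, beside -1.90 for the fast genes. Whether fast and slow genes differed in these comparisons was not tested.

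Single glands departed from the common pattern. Averaged over genes, each centred on its mean over the 35 arrays, BPA25+I3C replicate 4 had the highest fast-twitch mean of the series, 5.77, with a slow-fibre mean of 0.31. Control replicate 5 came next with 5.53 and 1.89. The highest slow-fibre mean belonged to BPA25 replicate 1, at 3.03, where the fast-twitch mean was 3.85.

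The myosin probes also shifted against each other. The log2 signal of Myh4 minus that of Myh2 probe 1 was 5.28 on BPA25+I3C replicate 4, against 3.15 on control replicate 5 and -0.53 to 2.45 on the other 4 control arrays, with both probes above background on all 6. Only the change of this difference from array to array can be read, not its size. Myod1 and Myog, factors that drive the myogenic programme, averaged 4.43 on BPA25+I3C replicate 4 and 4.00 on control replicate 5, centred in the same way, the highest 2 of the 35 means. Myod1 was above background on 10 of 35 arrays and Myog on 17. On BPA25+I3C replicate 4 the centred mean of 11 epithelial markers was -2.95, the lowest of the series. How epithelial RNA and muscle RNA bear on one another in that gland was not tested.

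**Figure D4:**
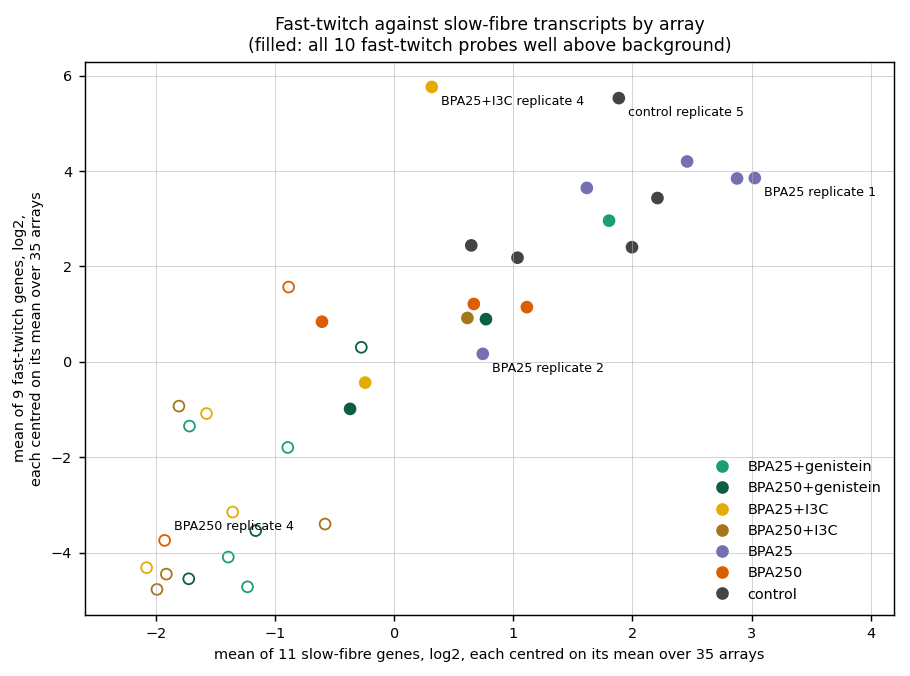
Mean of the 9 fast-twitch genes (y axis) against the mean of 11 slow-fibre genes (x axis) on each of 35 arrays, in log2 units with each gene centred on its mean over the arrays; filled points had all 10 fast-twitch probes above background. BPA25+I3C replicate 4 and control replicate 5 stand highest on the fast axis, at 5.77 and 5.53, while 4 of the BPA25 glands reach 3.65 to 4.2 with slow-fibre means of 1.62 to 3.03.

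Of the 10 genes outside the members that ran most like them, 5 stood in the muscle lists used here. Over the 35 arrays the highest Spearman correlation with the mean of the 9 was 0.987 for Myoz1, which binds calcineurin at the Z-disc of fast fibres, followed by Hhatl (0.984), Ampd1, the muscle AMP deaminase (0.983), Dhrs7c (0.982) and Trdn, triadin, which links calcium release channel and calcium store (0.980). Pgam2, the muscle phosphoglycerate mutase (0.975), and Tmod4, a cap of actin filaments (0.972), were also among the first 10, as were 2 probes with no RefSeq match, AF370889 (0.978) and TC533613 (0.971). Of 16148 genes 34 exceeded 0.9 and 100 exceeded 0.7. The first 10 had 8 genes in common with the first 10 after centring on slides, and 9 with those found without slide 3. All values share arrays and slides and are given as a description.

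A list of 40 further skeletal muscle genes, chosen with results of these arrays known, was set beside the members. Of these, 32 were measured, with a median correlation of 0.853 with the members and 23 of 32 above 0.7. Eno3, the muscle enolase, stood at 0.949, Actn3, the fast-fibre actinin, at 0.968 and Myl1, a fast light chain, at 0.963. The lowest correlations among the measured genes were those of Jph1, a junctional membrane protein (-0.06), Gpd1, a glycerol phosphate dehydrogenase also of fat (0.04), Cav3 (0.19) and Mustn1 (0.39). In BPA250+I3C against control 30 of 32 were lower and none was called, with a median of -2.96, and Myl1 stood at -4.74 ± 1.36 (SE), while Gpd1 stood at 1.34 ± 0.56. Actn3 in that comparison stood at -5.09 ± 1.41.

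Markers of other cell types of the gland ran apart from the members. Median correlations were 0.09 for 11 epithelial genes, -0.10 for 9 adipocyte genes, -0.06 for 5 genes of smooth muscle and myoepithelium, -0.07 for 5 endothelial genes, -0.10 for 5 fibroblast genes, -0.25 for 4 erythroid genes, -0.01 for 4 T cell genes and 0.20 for 7 Schwann cell genes. Among 4 measured brown adipocyte genes the median was -0.09, with Ucp1, the uncoupling protein, at -0.26, whereas Cox8b, a cytochrome oxidase subunit of brown fat, heart and skeletal muscle, reached 0.892. The embryonic myosin Myh3 stood at 0.766, Myod1 at 0.762 and Myog at 0.785. Against control, the 11 epithelial genes had medians of -0.47 with BPA25+genistein, -1.0 with BPA250+genistein, -2.02 with BPA25+I3C and -0.90 with BPA250+I3C, each with 10 of 11 lower and none called. With BPA alone the medians were -0.34 for BPA25 (7 of 11 lower) and -0.27 for BPA250 (9 of 11 lower). Their summed signal, in log2 units relative to the 75th percentile, ran from 3.79 to 5.74 with BPA25+genistein, 3.98 to 5.16 with BPA250+genistein, 0.56 to 4.85 with BPA25+I3C and 3.73 to 5.29 with BPA250+I3C, against 3.68 to 5.74 in control. Their part in the lower muscle signal of those groups was not tested.

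**Figure D5:**
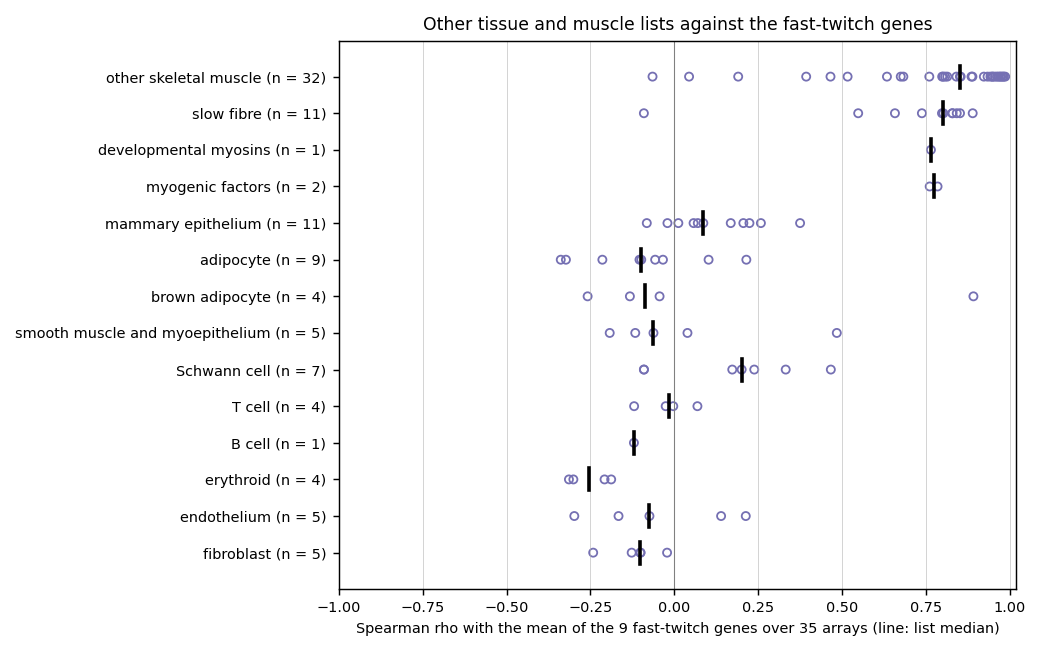
Spearman correlation over 35 arrays (x axis) between each listed gene and the mean of the 9 fast-twitch genes, by list (rows), with a line at the list median. Medians of the skeletal muscle and slow-fibre lists lie at 0.853 and 0.803, those of the lists of other cell types between -0.25 and 0.20, and the isolated brown adipocyte point at 0.892 is Cox8b.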

How the data were processed

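Fluorescence of 35 arrays (1 gland each, 150 ng of total RNA, Cy3) was analysed. Per the file headers, the authors' scanner output holds intensity values of each spot (processed, mean and background signals) and flags, written by Agilent Feature Extraction, version 9.5.3.1 per the submitters' processing notes. The flags for background, saturation and outliers are deposited by the authors as 0 or 1. The authors also deposited a table of log2 values whose normalization is not given in the sources used here, with 194 missing values, and it served as an alternative.

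The processed intensity was taken as log2 and the 75th percentile of the array's 41012 probes was subtracted. Control spots (1639) and outlier-flagged spots were left out, and 263 repeated probes were averaged. A probe was kept where 1 group had 4 or more of its 5 arrays well above background and no more than 5 values were missing (18996 probes). The brightest probe stood for a gene, which gave 16157 genes. Probes were named through RefSeq GRCr8 (21252 matched, 19760 did not and kept the file's name). A group-means model over 35 arrays was fitted with limma 3.58.1 in R 4.3.3, with Benjamini-Hochberg adjustment. The fits were tested on simulated data. Sample number limits the precision of array values.

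The members and gene lists were chosen with earlier results of these data known. Named besides the members were the 10 genes with the highest Spearman correlation with them, the genes of the lists by mean level, and all genes called between 2 groups. Myl2, Jph1, Cav3 and Mustn1 were named after their values were seen.

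Whether equal replicate numbers pair arrays was checked by correlating their deviations from group means: all 5 pairs exceeded 0.1 for BPA25 and control (0.124 to 0.896) and for BPA250+genistein and BPA250 (0.233 to 0.662), and 3 or 4 of 5 in the other comparisons. The labels state no shared litter or day for a number. Slides (10) and scan days (5) were taken from the file headers. Alternatives were normexp background correction (offset 50), quantile normalization, a percentile over probes above background on all arrays, the deposited log2 table, outlier spots kept, 2 other filters, all probes fitted, slide, scan day or replicate number as a block, array weights, and arrays left out. One of the genes most like the members is not reported here.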

Additional observations from a re-analysis of the deposited data

Results flagged for a closer look

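Dixon's test for 1 array far from the other 4 of its group was run on 70 sets of 5 arrays (10 probes in 7 groups), and 16 exceeded the critical value of 0.71. Chance gives about 1 in 20, and the 10 probes vary together, so flags on the same array are not independent.

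BPA25 replicate 2 stood apart as the lowest of its group for 7 probes. Its log2 levels were 2.03 for Myh4, 2.19 for Tnnc2, 3.53 for Tnni2, 1.67 for Tnnt3, -0.16 for Atp2a1, 2.59 for Ckm and 0.48 for Pvalb. This array lies on slide 3, where 93.4% to 96.4% of all probes were above background, and what part that has in the low levels was not tested.

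BPA250 replicate 4 stood apart as the lowest of its group for 7 probes as well. It read -2.86 for Myh4, -3.80 for Tnnc2, 0.63 for Tnni2, -4.07 for Atp2a1, -0.57 for Ckm, -1.87 for Acta1 and -3.88 for Pvalb. Of its 10 fast-twitch probes 3 were above background, and the slow-fibre mean was -1.93.

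Tnnt3 stood apart as the highest of its group on BPA25+I3C replicate 4, at 8.15. Myh2 probe 2 did so on BPA25+genistein replicate 2, at 2.06.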

How the results depend on the processing

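The median log2 fold change of the 9 genes kept its sign in 178 of 182 recomputations under other settings and in 148 of 150 with 1 array left out. The exceptions were BPA25 against control (0.05 with array weights, 0.42 without slide 3, 0.64 without BPA25 replicate 2, 0.54 without control replicate 5) and the I3C difference between BPA doses (-1.20 and -0.71 with slide as a fixed and as a random block). Of 1521 recomputed values of single members, 1484 kept their sign and 10 moved by more than the SD within groups. The size of the medians depended on the setting. With normexp the median was -3.25 for BPA25+genistein against BPA25 (-5.13 in the main fit) and -0.98 for BPA250+genistein against BPA250 (-1.90). It was -1.64 for BPA250+I3C against BPA250 (-2.85) and -4.03 for BPA250+I3C against control (-5.91). Array weights went the other way for BPA25+genistein against BPA25, to -7.365. The number of members called by limma, 0 in every comparison, became 8 for BPA250+I3C against control with slide as a random block. With array weights it became 7 (BPA25+genistein against BPA25), 9 (BPA25+I3C against BPA25), 7 (BPA25+genistein against control), 2 (BPA250+genistein against control, Acta1 and Tnnt3), 3 (BPA25+I3C against control, Acta1, Atp2a1 and Tnni2), 9 (BPA250+I3C against control) and 9 in the F test. The weights moved the genistein difference between doses to 5.91 (2.76 without weights) and that of I3C to 3.70 (0.79). Without slide 3 limma called 1 (BPA25+genistein against BPA25). Leaving out 1 array gave 0 to 2 for BPA25+I3C against BPA25, 0 to 2 for BPA25+I3C against control and 0 to 6 in the F test, the highest always without BPA25+I3C replicate 4. The cause of these changes was not tested. Counts over all genes went as far as 819 with array weights, against 2 without, for BPA25+I3C against BPA25, and 967, against 1, in the F test. Readings not above background, up to 4 of 5 arrays of a group for Myh2 probe 2, limit how far a level can be followed down.

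With the replicate number as a block the medians were unchanged, since every group holds each number once (for example -0.07 for BPA25 against control, -1.90 for BPA250+genistein against BPA250 and -5.91 for BPA250+I3C against control). With this block limma called 0 members in every comparison.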
